A study of Mus musculus with 145 samples.

Results

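The mouse Hox cluster genes were followed through the reprogramming of spermatogonial stem cells (SSCs) in culture. Members were all gene symbols of the count table that consist of Hox, a cluster letter from a to d and a paralog number, which gave 39 of 24615 genes: 11 of Hoxa on chromosome 6 (chr6:52155590-52260880), 10 of Hoxb on chromosome 11 (chr11:96194316-96368256), 9 of Hoxc on chromosome 15 (chr15:102921103-103036852) and 9 of Hoxd on chromosome 2 (chr2:74668310-74765142), all on GRCm38. Of these, 36 had enough counts to be tested between cell classes, and *Hoxa4*, *Hoxc12* and *Hoxd12* did not.

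Hox genes encode homeodomain transcription factors that give cells their position along the head-to-tail axis of the embryo. Within a cluster, genes of low paralog number lie at one end and are switched on first and furthest forward in the embryo, and genes of high paralog number follow. Wnt and retinoic acid signals and Cdx factors open the clusters, trithorax and Polycomb complexes hold them active or silent, and Pbx, Meis and Pknox proteins bind DNA together with Hox proteins. In pluripotent stem cells the clusters are known as Polycomb-covered domains with little transcription.

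The 250 bases before the start are printed for 3 members, *Hoxb4* and *Hoxb8*, which both fell in the reprogramming stages RPG2, RPG3 and RPG4, and *Hoxd4*, which was seen mainly in the neural cluster Neural 3. They are from RefSeq, assembly GRCm38.p6, plus strand, at chr11:96318017-96318266, chr11:96281655-96281904 and chr2:74721728-74721977. Capitals mark matches to TTTATNG, a Cdx motif, and to TGATNNAT, a motif of Hox with Pbx, searched on both strands.
Hoxb4: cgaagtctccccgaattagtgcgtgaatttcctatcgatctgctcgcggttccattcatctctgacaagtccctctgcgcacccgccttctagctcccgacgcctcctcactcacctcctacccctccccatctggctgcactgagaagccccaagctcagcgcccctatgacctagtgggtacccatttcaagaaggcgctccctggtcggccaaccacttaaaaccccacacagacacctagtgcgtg
Hoxb8: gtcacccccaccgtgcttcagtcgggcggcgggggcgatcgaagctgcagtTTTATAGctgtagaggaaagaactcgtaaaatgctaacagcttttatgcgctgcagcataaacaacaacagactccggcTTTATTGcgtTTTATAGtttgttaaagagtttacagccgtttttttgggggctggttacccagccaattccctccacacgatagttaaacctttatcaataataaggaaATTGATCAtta
Hoxd4: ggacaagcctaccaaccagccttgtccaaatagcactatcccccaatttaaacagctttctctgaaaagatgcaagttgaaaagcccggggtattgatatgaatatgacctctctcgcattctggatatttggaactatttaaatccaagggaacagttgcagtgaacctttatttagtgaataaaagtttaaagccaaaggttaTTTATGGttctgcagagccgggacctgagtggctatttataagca
The *Hoxb8* window held 3 matches to the Cdx motif and 1 to the Hox with Pbx motif on the minus strand, the *Hoxd4* window 1 match to the Cdx motif, and the *Hoxb4* window neither. Of 32851 RefSeq promoters of this length, 9.81% held the Cdx motif and 7.68% the Hox with Pbx motif. RefSeq windows were found for 22 members, as 24 windows, of which 2 held the Cdx motif and 4 the Hox with Pbx motif (*Hoxa2*, *Hoxb1*, *Hoxb8* and *Hoxd11*). In *Hoxb8*, matches to the TATA motif TATAAA, read on the minus strand, overlapped 2 of the Cdx matches.

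The cells came from the cross labelled C57BL/6[female] X DBA[male] and carried Oct4-EGFP, a reporter driven by the Oct4 promoter. SSCs from male pups grew on feeders of mitomycin C treated mouse embryonic fibroblasts in medium with EGF, bFGF, GDNF and ESGRO, and gPSCs (germline-derived pluripotent stem cells) and ESCs in N2B27 with 2iL. Modified STRT-seq, which counts each captured mRNA molecule once by its unique molecular identifier (UMI) whatever its length, gave 46 libraries of the original condition (treatment none, days 0 to 27, labelled SSCR_D0 to SSCR_D27) and 1 library each of the line gPSC-1 at passage 1 (p1), of gPSC-1 at passage 15 (p15) and of mouse ESCs. The RNA arm of scTrio-seq2 gave 8 samples treated with 5C, the mixture of SGC707, vitamin C, EGCG, Daphnetin and TUDCA, and 5 treated with its solvent DMSO. Cells were picked by mouth pipette from SSC-like and pluripotent-like colonies, so that the number of cells of a class reflects the picking.

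The authors sorted the 4339 cells of the original condition into clusters named SSC1 to SSC4, RPG1 to RPG4 for successive stages of reprogramming, and fibroblast, early-pluripotent, meiotic and neural clusters for side branches. Since the clusters were drawn on the same transcriptomes, the tests describe how named classes differ and do not define those classes anew. The UMIs of all cells of 1 class in 1 library were added where there were 5 cells or more, which gave 82 sums of 433094 to 34168335 UMIs. Levels are CPM, UMIs per gene brought to the same total for every sum after TMM normalization, as mean ± SD over libraries. There were 36 libraries with SSC1-4 cells (2265 cells in all), 7 with RPG1 (333), 3 with RPG2 (47), 8 with RPG3 (261), 2 with RPG4 (33), 5 with fibroblast (221), 3 with early-pluripotent (196), 6 with meiotic (505) and 12 with neural cells (478), where the cells in brackets include those of smaller libraries. The libraries came from a pair of reprogramming batches, B1 and B2 in the deposited cell annotation, and many share a batch and a day. No label says which were separate cultures, so the p-values measure the spread between libraries, which may be technical, and all libraries used the same 96 plate barcodes. In sums over cells, fewer cells that express a gene and less RNA per cell cannot be told apart.

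SSC1-4 cells transcribed the Hoxb cluster far above the others. The 10 *Hoxb* members together reached 400 ± 91.3 CPM (n = 36 libraries, 126 to 546) and took 91.4% of all Hox UMIs, against 18 ± 12 CPM for *Hoxc*, 15.4 ± 11.1 for *Hoxa* and 1.25 ± 1.22 for *Hoxd*. The lowest value came from the library SSCR_D16 replicate 6, which held 8 SSC1-4 cells and 51 *Hoxb* UMIs. The next library up reached 248 CPM.

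Within Hoxb the middle of the cluster and its far end led. *Hoxb7* (ENSMUSG00000038721.8, chr11:96286623-96290162, plus strand), which encodes a factor of trunk identity, had 131 ± 32.6 CPM in SSC1-4, with a lowest library of 27.2, a median of 133 and a highest of 210. *Hoxb6* (chr11:96292476-96301569), its neighbour, had 80.0 ± 31.8 CPM (9.89, 80.1 and 172). *Hoxb13* (chr11:96194316-96197447), the most posterior member, known from the tail bud and the prostate, had 61.8 ± 22.1 CPM (16, 57.7 and 149). These were followed by *Hoxb5* (chr11:96303336-96306121), whose exons overlap those of the antisense RNA *Hoxb5os*, at 53.7 ± 25.9 CPM (7.42, 57.0 and 145). The ranges of *Hoxb6*, *Hoxb13* and *Hoxb5* over libraries overlapped widely, so that their order is not firm.

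The other *Hoxb* members lay lower. *Hoxb8* had 16.6 ± 9.4 CPM (2.47, 15.5 and 54.6), *Hoxb4* 15.3 ± 9.89 (3.6, 12.3 and 56.9) and *Hoxb1*, a gene of the hindbrain, 14.1 ± 8.65 (0, 13.2 and 30.6). *Hoxb2*, another hindbrain gene, had 13.6 ± 6.66 CPM (0, 13.3 and 34.2), *Hoxb9* 9.82 ± 5.68 (0, 10.8 and 23.8) and *Hoxb3* 3.79 ± 2.87. Neighbours in this order did not differ beyond their spread. Exons of *Hoxb2* and *Hoxb3* overlap the antisense RNA *Hoxb3os*, and since the strand setting of the counting is not given in the sources used here, reads of the antisense RNAs cannot be told apart from those of *Hoxb2*, *Hoxb3* and *Hoxb5*. *Hoxb1*, *Hoxb4*, *Hoxb6*, *Hoxb7*, *Hoxb8*, *Hoxb9* and *Hoxb13* share no exon bases with another gene.

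Outside Hoxb, *Hoxc9* (chr15:102976439-102985099) led with 10.9 ± 7.48 CPM (0, 9.45 and 24.6). *Hoxa7*, which overlaps the antisense RNA *Hoxaas3*, had 4.22 ± 5.0 CPM (0, 3.87 and 28.5), and *Hoxc13*, known from hair and nail, 2.96 ± 4.04. The 25 members with the lowest levels had a mean of at most 2.17 CPM (*Hoxa3*), and *Hoxd3*, *Hoxd12* and *Hoxc5* had 5, 4 and 3 UMIs among the 586219537 of these 36 libraries.

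**Figure D1:**
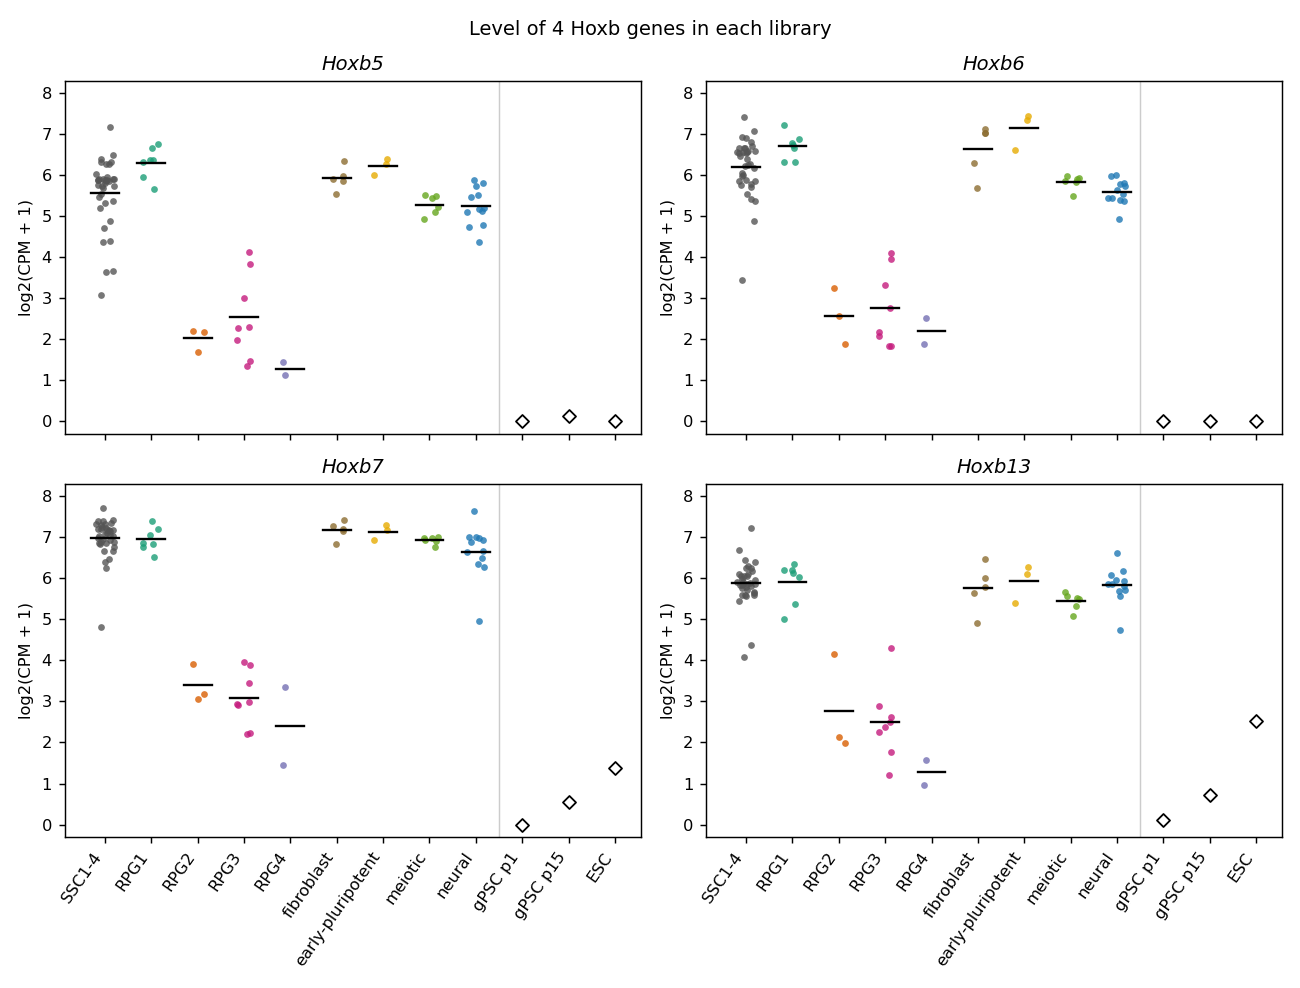
Level of *Hoxb5*, *Hoxb6*, *Hoxb7* and *Hoxb13* in each library (point) by cell class, as log2(CPM + 1), with the mean of the log values as a black bar and the gPSC-1 and ESC libraries as diamonds. SSC1-4 and RPG1 lie together at the top with the classes of the side branches, while RPG2, RPG3 and RPG4 lie far below, and all 8 RPG3 libraries are below the lowest SSC1-4 library for *Hoxb7*.

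The first comparison asked how Hox transcription stood at the earliest stage of reprogramming. In RPG1, where *Nanog* stood at 13 ± 7.63 CPM (7.01 to 29.3) against 2.27 ± 4.36 (0 to 23.7) in SSC1-4, the Hoxb cluster was at 465 ± 83.9 CPM (n = 7, 325 to 553). *Hoxb7* had 125 ± 25.8 CPM (91.5, 116 and 168), *Hoxb6* 106 ± 24.0 (78.7, 106 and 149) and *Hoxb5* 80.4 ± 20.1 (49.9, 81.7 and 107). *Hoxb13* had 61.6 ± 18.3 CPM (31.5, 69.3 and 80.1), *Hoxb8* 25.4 ± 8.4 (12.9, 25.6 and 40.5), *Hoxb4* 18.8 ± 5.77 (10, 17.7 and 25.6) and *Hoxb9* 18.2 ± 4.14 (12.8, 16.9 and 24.9). *Hoxb1* had 13 ± 9.01 CPM (3.74, 9.98 and 29.2) and *Hoxb2* 12.7 ± 4.76 (6.54, 11.8 and 19.7), and the ranges of all of these overlapped those of SSC1-4. None of the 10 *Hoxb* members passed the test against SSC1-4, with log2 differences of -0.08 ± 0.18 (SE) for *Hoxb7* (adjusted p = 0.876, edgeR quasi-likelihood test, Benjamini-Hochberg over all genes), 0.39 ± 0.22 for *Hoxb6* (0.336), 0.57 ± 0.25 for *Hoxb5* (0.174) and 0.87 ± 0.41 for *Hoxb9* (0.217). A difference the size of these standard errors could not be detected, and the values do not show that the classes are equal.

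Of the 36 members tested, 2 were lower in RPG1 and none was higher, where 2.03% of all 20030 genes were called lower. *Hoxa2*, a gene of the hindbrain and neural crest, had 640 UMIs in SSC1-4 and 0 in RPG1, at least 29.2-fold lower with a floor of 3 UMIs over the group (adjusted p = 0.000694). *Hoxd8* had 1 UMI in RPG1 against 252, a ratio of 34.5 with a counting interval of 6.14 to 1370 (adjusted p = 0.0478). Both are rare transcripts, at 1.07 and 0.363 CPM in SSC1-4. The median log2 difference was -0.86 over the members, 0.33 over *Hoxb* and -0.05 over all genes. Leaving out any one of SSCR_D18 replicates 3 and 5, SSCR_D20 replicates 1 and 2 and SSCR_D23 replicates 1 and 2 left 1 call. With the library as a block neither call held, and 4 of 28 members had an unadjusted p below 0.05.

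From RPG2 on the Hoxb cluster was low. The *Hoxb* sum was 31.9 ± 19.2 CPM in RPG2 (n = 3, 19.5 to 54.1), 37.7 ± 26.5 in RPG3 (n = 8, 11.3 to 85.3) and 13.8 ± 6.3 in RPG4 (n = 2, 9.39 and 18.3), against 400 ± 91.3 in SSC1-4. The highest RPG3 library was thus below the lowest SSC1-4 library. Each of these classes was set against SSC1-4, and all 10 *Hoxb* members passed the test as lower in each. The weakest call was on *Hoxb3*, which was lost in RPG2 without SSCR_D12 replicate 2 or SSCR_D14 replicate 5 and in RPG4 without either of its libraries, as was *Hoxb9* in RPG4 without SSCR_D20 replicate 1. All RPG2 libraries were from batch B2 and both RPG4 libraries from B1, where SSC1-4 had libraries of both, mostly of B1. Within B2 the call on *Hoxb3* in RPG2 and that on *Hoxb8* in RPG3 were lost. With 1 sum per batch and day, *Hoxb3* and *Hoxb8* were not called in RPG2, and all 10 were in RPG3. RPG4 then has 1 sum, so that no spread of its own stands behind its calls.

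*Hoxb7* fell the furthest in CPM. It had 14.1, 8.12 and 7.36 CPM in the RPG2 libraries SSCR_D12 replicate 2, SSCR_D14 replicate 5 and SSCR_D14 replicate 6. In RPG3 it had 8.24 ± 4.24 CPM (3.63, 6.8 and 14.7), and in RPG4 9.15 and 1.72 CPM in SSCR_D20 replicates 1 and 2. All 13 values were below the lowest of the 36 SSC1-4 libraries. The log2 differences from SSC1-4 were -3.75 ± 0.37 (adjusted p = 1.62e-14), -4.09 ± 0.24 (9.64e-28) and -4.76 ± 0.50 (4.96e-13) in these classes, in the order of their numbers.

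The neighbouring *Hoxb6* had 8.60, 2.71 and 4.91 CPM in RPG2, 7.22 ± 5.52 (2.6, 4.67 and 16.2) in RPG3, and 4.78 and 2.68 in RPG4. Of these classes only RPG3 had libraries that reached into the range of SSC1-4, whose lowest library was at 9.89. The log2 differences were -3.90 ± 0.48 (adjusted p = 1.03e-10), -3.56 ± 0.29 (3.46e-19) and -4.49 ± 0.63 (9.27e-09). *Hoxb5* had 3.61, 3.52 and 2.26 CPM in RPG2, 6.37 ± 5.6 (1.56, 3.9 and 16.5) in RPG3, and 1.19 and 1.72 in RPG4, with log2 differences of -4.13 ± 0.56 (3.16e-09), -3.18 ± 0.32 (1.57e-14) and -5.15 ± 0.76 (5.23e-08). Again the RPG2 and RPG4 libraries stood clear of SSC1-4 and the higher RPG3 libraries did not.

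*Hoxb13* had 16.9, 2.98 and 3.40 CPM in RPG2, 5.85 ± 5.5 (1.3, 4.45 and 18.9) in RPG3, and 1.99 and 0.958 in RPG4. The RPG2 library of day 12 and the highest RPG3 library were above the lowest SSC1-4 library, at 16. The log2 differences were -3.01 ± 0.46 (adjusted p = 6.73e-08), -3.38 ± 0.29 (7.25e-18) and -5.50 ± 0.71 (9.25e-10). *Hoxb8*, next to *Hoxb7*, changed least among the *Hoxb* members in RPG3. It had 6.38, 0.271 and 0.755 CPM in RPG2, 4.46 ± 4.18 (0.519, 2.34 and 10.6) in RPG3, and 0.796 and 0.575 in RPG4, with log2 differences of -2.80 ± 0.75 (0.00168), -2.03 ± 0.44 (5.15e-05) and -4.65 ± 1.10 (0.000573).

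The anterior members came close to 0. *Hoxb4* had 1.94, 0.271 and 1.13 CPM in RPG2 and a median of 1.35 (0.366 to 6.61) in RPG3, with log2 differences of -3.74 ± 0.84 (adjusted p = 0.000169) and -2.89 ± 0.48 (1.94e-07). *Hoxb2* had 0.832, 0.271 and 0.755 CPM in RPG2 and a median of 0.329 (0.13 to 2.56) in RPG3, with log2 differences of -4.43 ± 0.81 (5.32e-06) and -4.45 ± 0.50 (9.15e-13). *Hoxb1* had 0.555, 0.271 and 0.943 CPM in RPG2, a median of 0.488 (0.13 to 3.37) in RPG3 and no UMI in either RPG4 library. These gave log2 differences of -4.53 ± 1.06 (0.000345) and -4.09 ± 0.63 (3.12e-08), and at least 41.5-fold less in RPG4 (0.000231). *Hoxb1* and *Hoxb2* were at 0 in some SSC1-4 libraries too, so that their ranges overlapped.

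*Hoxb9* had 0.832, 0.812 and 0.189 CPM in RPG2 and a median of 1.21 (0.13 to 5.13) in RPG3, with log2 differences of -4.06 ± 0.98 (adjusted p = 0.000465) and -2.60 ± 0.53 (2.17e-05). *Hoxb3* was lower by -3.29 ± 1.11 in RPG2 (0.0142) and by -4.17 ± 0.73 in RPG3 (9.46e-07). In RPG4, *Hoxb4* was at 0 and 0.766 CPM and *Hoxb2* at 0.398 and 0.383 CPM. *Hoxb9* had 2 UMIs there, a ratio of 41.3 (11.4 to 341).

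Over all members, 14 of 36 were lower in RPG2 than in SSC1-4, 25 in RPG3 and 12 in RPG4, and none was higher. Of all genes, 18.5%, 31.5% and 15.1% were called lower in these comparisons, below the shares of the members tested. The filter on low counts was set over all classes, so that a member seen in few classes besides SSC1-4 had to be lower elsewhere, and the shares are a description. The median log2 difference of the members was -3.26 in RPG2, -3.27 in RPG3 and -4.64 in RPG4, against -0.52, -0.25 and -0.54 over all genes. Counting members without UMIs at their bound, these medians were -3.16, -3.00 and -4.17, over the 27, 34 and 26 members that could be given one. The comparisons share the SSC1-4 libraries and are not independent of each other. Taking the library as a block left 11 members lower in RPG3, where the same libraries without the block gave 22. The block kept 8 *Hoxb* members, all but *Hoxb3* and *Hoxb9*, and outside Hoxb kept *Hoxa7*, *Hoxc9* and *Hoxc10*. With it *Hoxb3* was not called in RPG2, nor *Hoxb3* and *Hoxb9* in RPG4.

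The calls outside Hoxb were on transcripts with few UMIs in the later classes. *Hoxc9* had 1.39, 0.271 and 0.189 CPM in RPG2, a median of 0.332 (0 to 4.21) in RPG3 and no UMI in RPG4. The log2 differences were -4.22 ± 1.11 (adjusted p = 0.00139) and -4.41 ± 0.71 (1.31e-07), and RPG4 was at least 32.2-fold lower (0.000697). *Hoxa7* was at 0 in more than one RPG3 library, with a median of 0 and a highest value of 1.35 CPM, and differed by -4.41 ± 1.02 (0.00015), while in RPG2 (0, 0.812 and 0.566 CPM) it did not pass the test (0.0818) but did with the library as a block (-4.52 ± 1.55, adjusted p = 0.0264), as did *Hoxa10*.

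In RPG3 the calls took in 8 of 10 *Hoxa*, 4 of 8 *Hoxc* and 3 of 8 *Hoxd* members tested. *Hoxa3* differed by -4.79 (adjusted p = 7.8e-06) and *Hoxd8* had no UMI, at least 10.9-fold lower. Neither was called with the library as a block, and the only Hoxa call that held was on *Hoxa7*. *Hoxc13* was different. It stood at 4.21 ± 6.45 CPM in RPG3 (0.13, 1.5 and 18.2) against 2.96 ± 4.04 in SSC1-4 and did not pass the test, with a log2 difference of 0.42 ± 0.64 (0.584). In RPG2, *Hoxc13* had 1 UMI, a ratio of 39.3 (7.04 to 1550).

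**Figure D2:**
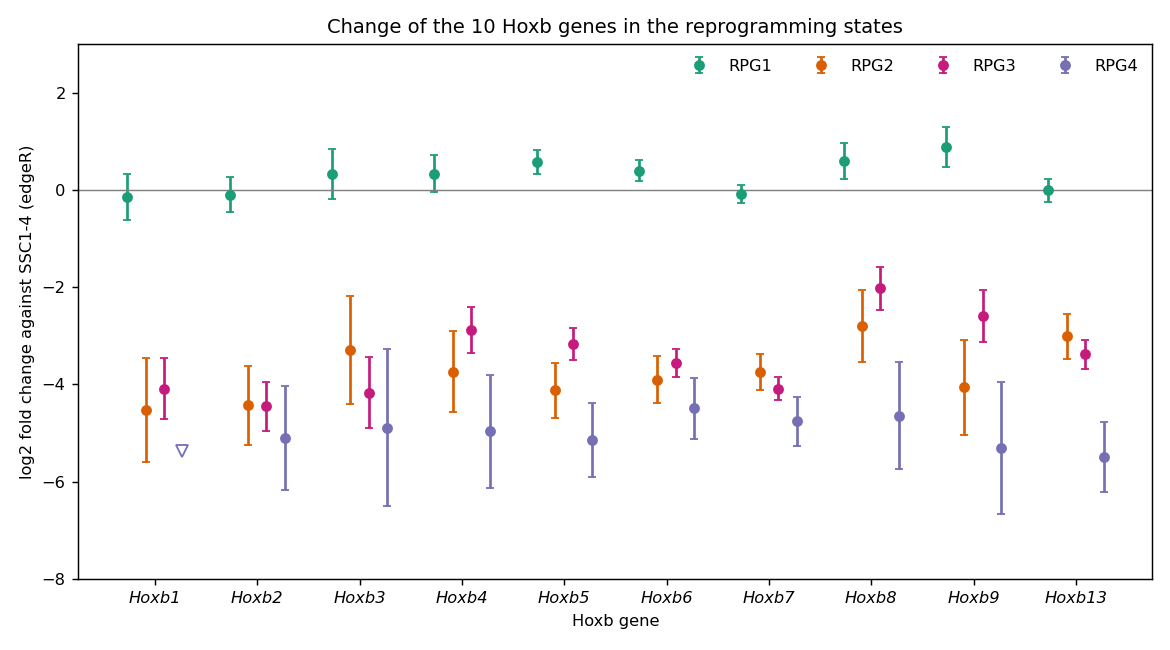
Log2 difference from SSC1-4 (± SE, edgeR) of the 10 *Hoxb* members, in the order of paralog number, in RPG1, RPG2, RPG3 and RPG4. RPG1 lies near 0 for the members with many UMIs, the later classes lie between -2.03 (*Hoxb8* in RPG3) and -5.50 (*Hoxb13* in RPG4), and the open triangle is the bound for *Hoxb1* in RPG4, which had no UMI.

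The later classes were also set against RPG1. For *Hoxb7* the log2 differences from RPG1 were -3.67 ± 0.38 (adjusted p = 1.11e-12) for RPG2, -4.01 ± 0.26 (3.78e-24) for RPG3, and -4.68 ± 0.51 (6.25e-12) for RPG4. In all, 13 members were lower than in RPG1 at the stage RPG2, 16 at RPG3 and 13 at RPG4, where the backgrounds were 14.7%, 22.6% and 12% of all genes. For every *Hoxb* member but *Hoxb3*, all RPG3 libraries lay below those of RPG1. The share of all genes that are separate in this way was not counted, so this is a description. The median log2 difference from RPG1 over *Hoxb* was -4.18 in RPG2, -3.85 in RPG3 and -5.27 in RPG4. *Hoxc13* had 7.47 ± 2.98 CPM in RPG1, and in RPG3 it did not pass the test against it (-0.92 ± 0.84, 0.393). With the library as a block, however, *Hoxc13* was called lower in RPG3 than in RPG1 (-2.91 ± 0.98, adjusted p = 0.0146), while *Hoxa3*, *Hoxc6* and *Hoxc10* lost their calls there, as did *Hoxb3* in RPG2 and RPG4.

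Germ cell markers moved with the Hoxb cluster. The summed level of *Dazl*, *Ddx4*, *Zbtb16* and *Dmrt1* was 1620 CPM in SSC1-4 (1160 to 2480), 1410 in RPG1 (1250 to 1600), 241 in RPG2 (167 to 286), 195 in RPG3 (99.8 to 308) and 99.3 in RPG4 (76.4 to 122), and all 4 were called lower in RPG2, RPG3 and RPG4. None of the 4 was at 0 in these classes. The gPSC p1, gPSC p15 and ESC libraries had 60, 68.2 and 56.4 CPM. In the order of their *Hoxb* sums, of 11.3, 13.6, 21.8, 25.1, 28.9, 51.9, 63.4 and 85.3 CPM, the RPG3 libraries had 73.8, 69.7, 88.2, 106, 101, 162, 168 and 167 CPM of *Dazl*. From cell to cell within a library, the log levels of Hoxb and of the germ cell markers had a correlation of 0.79 in SSCR_D23 replicate 2 (31 cells), the library with the highest *Hoxb* sum, and of -0.04 to 0.32 in the other 5 libraries of at least 20 RPG3 cells. These are descriptions of cells that share a library and differ in depth. The 6 pluripotency markers were all called higher in RPG3, the 4 meiotic markers all lower, and 2 of 10 fibroblast or feeder markers lower. The summed fibroblast or feeder markers were at 60.1 CPM in SSC1-4 and 29.1 in RPG3, with none at 0, and the 7 testis somatic markers at 25.9 and 23.8, with *Cyp17a1* at 0 in RPG3. Of 6 testis somatic markers tested, 2 were called lower in RPG3 and none higher, beside 31.5% of all genes lower. In RPG2, 4 of 10 fibroblast or feeder and 3 of 6 testis somatic markers were called lower, beside 18.5% of all genes.

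The UMIs of Hoxb in RPG3 were spread over cells unevenly. The 3 highest cells held 40.9% of them in SSCR_D23 replicate 2 (31 cells) and 13.2% to 32.2% in the other 5 libraries of 26 to 65 cells. In the small libraries SSCR_D12 replicate 2 (7 cells) and SSCR_D20 replicate 8 (10 cells), where 3 cells are a large part of the library, they held 68.9% and 68.8%. Over all 261 RPG3 cells, the highest 27 cells held 39.7%, where the highest 227 of 2265 SSC1-4 cells held 32.1%. Only 12 RPG3 cells (4.6%) had no *Hoxb* UMI.

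At equal depth, fewer cells had a UMI of *Hoxb7* in the later classes. Less RNA in each cell also lowers this share, so the shares do not tell it apart from fewer expressing cells. At 50000 UMIs per cell, 89.8% of SSC1-4 and 90.1% of RPG1 cells had *Hoxb7*, 24.4% of RPG2 (exact binomial 95% interval 12.9 to 39.5), 32.7% of RPG3 (26.9 to 38.8) and 6.06% of RPG4 cells (0.743 to 20.2). Without thinning the shares were 94.9%, 92.8%, 76.6%, 71.6% and 60.6%, at median depths of 248474, 238901, 341308, 285699 and 345221 UMIs. The gPSC-1 and ESC libraries had *Hoxb7* in 0 of 46 cells of gPSC p1 (0 to 7.71), 0 of 31 of gPSC p15 (0 to 11.2) and 4.65% (0.568 to 15.8) of ESCs after thinning. Unthinned, these were 0%, 15.6% and 4.44%, at median depths of 283965, 356973 and 321636 UMIs. At 100000 UMIs per cell the shares were 45.3% in RPG3 and 28.1% in RPG4, against 0%, 3.33% and 4.76%. The share in RPG4 was thus above that in ESCs without thinning and at 100000 UMIs, while at 50000 UMIs their intervals overlapped. The libraries with 8 and 13 RPG4 cells also held 52 and 53 RPG1 cells, while each line had a library of its own. The lines are thus no measure of the background in RPG4. Cells are not replicates and gPSC p1, gPSC p15 and ESCs had 1 library each, so that no test was made. Intervals here and below cover counting error only.

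Counted over members, an SSC1-4 cell had 4.31 of the 10 *Hoxb* genes at that depth and an RPG1 cell 4.58. RPG2 and RPG3 cells had 1.11 each, RPG4 cells 0.636, and cells of gPSC p1, gPSC p15 and ESCs 0.0652, 0.290 and 0.186. By library, SSC1-4 ran from 2.43 to 5.2 members per cell (35 libraries), RPG1 from 4.06 to 5.07, and RPG3 from 0.46 to 2.4. RPG3 did not overlap SSC1-4 or RPG1.

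In gPSC-1 and ESCs, with 1 library for each sample and no test, Hoxb was low too. The *Hoxb* sum, here without TMM normalization, was 2.07 CPM (95% Poisson interval 1.38 to 2.97) in gPSC p1, 12.6 (10.5 to 14.8) in gPSC p15 and 8.04 (6.66 to 9.62) in ESCs. The gPSC p15 value lay between both RPG4 libraries and above the lowest RPG3 library, and the other values lay below all libraries of RPG2, RPG3 and RPG4. *Hoxb6* had no UMI in any of them, and *Hoxb7* had 0, 0.462 and 1.62 CPM. The other clusters made up most of the 22.6, 55.4 and 65.7 CPM of all members. *Hoxc13* had 7.91, 13.2 and 10.7 CPM. *Hoxc4* was highest in ESCs, at 14.7 CPM (12.8 to 16.7) against 1.21 and 2.86, and *Hoxb9* in gPSC p15, at 8.68 (7.01 to 10.6) against 1.71 in p1 and 1.62 in ESCs.

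**Figure D3:**
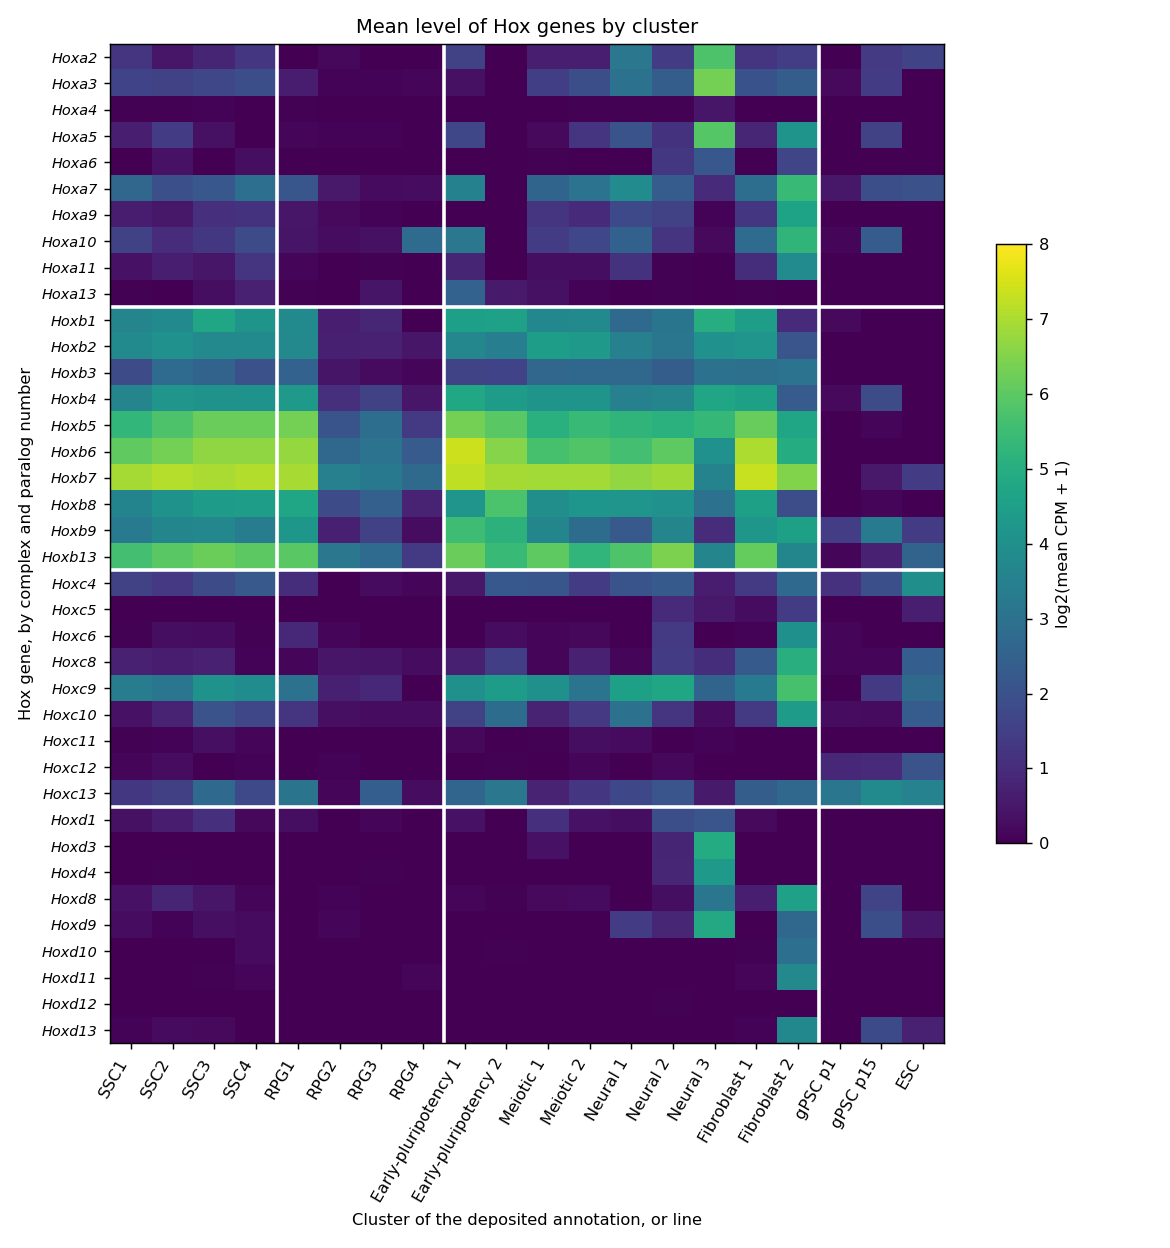
Mean level of the members reported here, as log2(mean CPM + 1), in 17 clusters of the original condition with sums of at least 5 cells and in the gPSC p1, gPSC p15 and ESC libraries, with white lines between the Hox clusters and between groups of cells. Hoxb is low in RPG2, RPG3, RPG4 and the lines, Neural 3 stands out in Hoxa and Hoxd, and Fibroblast 2 in Hoxa, Hoxc and Hoxd.

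Hoxb was also transcribed in the side branches. The *Hoxb* sum was 461 ± 107 CPM in fibroblast cells (n = 5), 556 ± 73.3 in early-pluripotent cells (n = 3), 336 ± 19.9 in meiotic cells (n = 6) and 314 ± 89.0 in neural cells (n = 12, 148 to 523). *Hoxb7* had 145 ± 21.2, 141 ± 17.4, 121 ± 7.45 and 108 ± 40.2 CPM there. The clusters that make up most of these classes also had the germ cell marker *Dazl*, with 759 CPM in Fibroblast 1, 681 in Neural 1 and 728 in Neural 2, beside 648 to 1030 in SSC1 to SSC4. The names of these clusters thus stand beside a germ cell marker at the level of SSCs, and *Nr2f1*, a neural marker, had 2.00 CPM in Neural 1, 8.81 in Neural 2 and 171 in Neural 3.

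In neural cells, 8 of 36 members were higher than in SSC1-4 and 2 were lower, with backgrounds of 5.77% and 4.97%. The higher members were *Hoxa2* (log2 difference 2.98 ± 0.58, adjusted p = 0.000161), *Hoxa3* (2.05 ± 0.47, 0.00146), *Hoxa5* (2.77 ± 0.76, 0.0101), *Hoxa7* (1.66 ± 0.54, 0.0347), *Hoxd9* (3.54 ± 0.86, 0.00306), *Hoxc5* (43 UMIs in 1 library against 3 UMIs in SSC1-4, a ratio of 67.2, 21.5 to 339), *Hoxd3* (1.37 CPM against 0.00732) and *Hoxd4* (1.07 against 0.0134). *Hoxd3* and *Hoxd4* passed the filter on low counts through 2 neural libraries alone and *Hoxc5* through 1 neural and 1 fibroblast library, so that these members had to be higher there, and the count is a description. The Hoxd calls rested on few libraries, since *Hoxd3* had UMIs in 2 of 12 neural libraries, *Hoxd4* in 3 and *Hoxd9* in 5, while *Hoxa2* had UMIs in 10 and *Hoxa3* in 12. *Hoxb6*, at 48.3 ± 9.9 CPM (29.6, 47.0 and 63.7), was lower by -0.74 ± 0.20 (0.0068), and *Hoxb9*, at 4.16 ± 4.05 CPM (0, 3.24 and 11), by -1.20 ± 0.39 (0.0353). The median was 0.46 over the members and -0.01 over all genes. No call remained with the library as a block, where 4 of 28 members had an unadjusted p below 0.05, and 2 calls were made on the same libraries without it.

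The Hoxa and Hoxd transcripts were high in the 61 cells of Neural 3, which came from the libraries SSCR_D27 replicates 1 and 2. There *Hoxa3* had 87.2 and 70.6 CPM, *Hoxa2* 61 and 45.8, *Hoxa5* 62.2 and 54.4, and *Hoxd3* 27.1 and 31.3. The Hoxa cluster held 46.8% of Hox UMIs in these cells, where it held 3.83% in SSC1-4. *Hoxb7* had only 5.91 and 16.2 CPM, *Hoxb13* 5.60 and 17.6, and *Hoxb1*, at the anterior end, 25.2 and 36.3. Further along the clusters, *Hoxa7*, *Hoxa9* and *Hoxa10* had 0.968, 0.0518 and 0.14 CPM, while *Hoxd9* had 27.6 and *Hoxd10* to *Hoxd13* had none.

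Other markers differed in the same cells. *Dazl* was at 128 CPM and *Col1a1*, a collagen of fibroblasts, at 343, against 756 and 32.4 in SSC2. The 10 fibroblast or feeder markers together were at 1200 CPM (49.8 to 65.9 in SSC1 to SSC4). The 7 testis somatic markers together were at 326 CPM (18.8 to 38.6 in SSC1 to SSC4), nearly all from *Sox9*, known from Sertoli cells and also from neural crest and glia, at 317. The Sertoli cell genes *Amh* and *Wt1* were at 0.0518 and 1.57 CPM, *Gata4* was at 4.6, and *Cyp17a1* and *Insl3* were at 0. Without the Neural 3 cells, 5 members were called between neural cells and SSC1-4 in place of 10, of which 3 were higher and 2 lower, and without SSCR_D27 replicate 1 there were 6. Whether these cells arose from SSCs or came from the feeder or testis was not tested.

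In fibroblast cells, 6 of 36 members were higher and none was lower, with 5.23% of all genes called higher. These were *Hoxa9* (log2 difference 3.14 ± 0.87, adjusted p = 0.0129), *Hoxc6* (3.35 ± 1.01, 0.027), *Hoxc8* (3.27 ± 0.83, 0.00427), *Hoxd13* (3.43 ± 1.07, 0.0397), *Hoxc5* (27 UMIs against 3 in SSC1-4, a ratio of 84.2, 25.9 to 434) and *Hoxd11* (0.997 CPM against 0.0405), genes of the trunk, the limb and the tail end. *Hoxc5* and *Hoxd11* passed the filter on low counts through 1 fibroblast and 1 neural library each, so that they had to be higher in these classes, and the count is a description. *Hoxd11* and *Hoxd13* had UMIs in 1 of 5 fibroblast libraries, *Hoxc6* and *Hoxc8* in 4 and *Hoxa9* in 5. The median was 0.34 over the members and -0.07 over all genes. Exons of *Hoxc5* and *Hoxc10* overlap on the same strand, as do those of *Hoxd3* and *Hoxd4*, so that their counts are uncertain. Leaving out SSCR_D8 replicate 1, SSCR_D10 replicate 1 or SSCR_D27 replicate 5 left 3 calls each. With the library as a block 0 members were called (3 of 28 with an unadjusted p below 0.05), against 2 on the same libraries without it.

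Several members were high in Fibroblast 2, of 39 cells. In its libraries SSCR_D10 replicate 1, SSCR_D27 replicate 5 and SSCR_D8 replicate 1, *Hoxa7* had 70.0, 8.44 and 43.6 CPM, *Hoxa9* 19.1, 21.7 and 31.3, and *Hoxa10* 16.6, 16.1 and 77.4. *Hoxc8* had 85.3, 0 and 9.36 CPM and *Hoxc9* 118, 17.3 and 16.6. The libraries of 1 cluster thus differed among themselves as much as several-fold. *Hoxb7* had 99.3, 117 and 47.5 CPM. The *Hoxb* sum was 196 ± 99 CPM (122 to 309) and took 38.2% of Hox UMIs, where Fibroblast 1 had 533 ± 55.2 CPM (461 to 592, n = 4) and 91.5%.

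Fibroblast 2 had *Col1a1* at 889 and *Dcn* at 915 CPM, with *Dazl* at 298. Fibroblast 1 had *Col1a1* at 83.4 CPM and *Hoxb7* at 161. Without the Fibroblast 2 cells, 1 member was called in place of 6. The share of feeder fibroblasts among these cells was not tested.

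**Figure D4:**
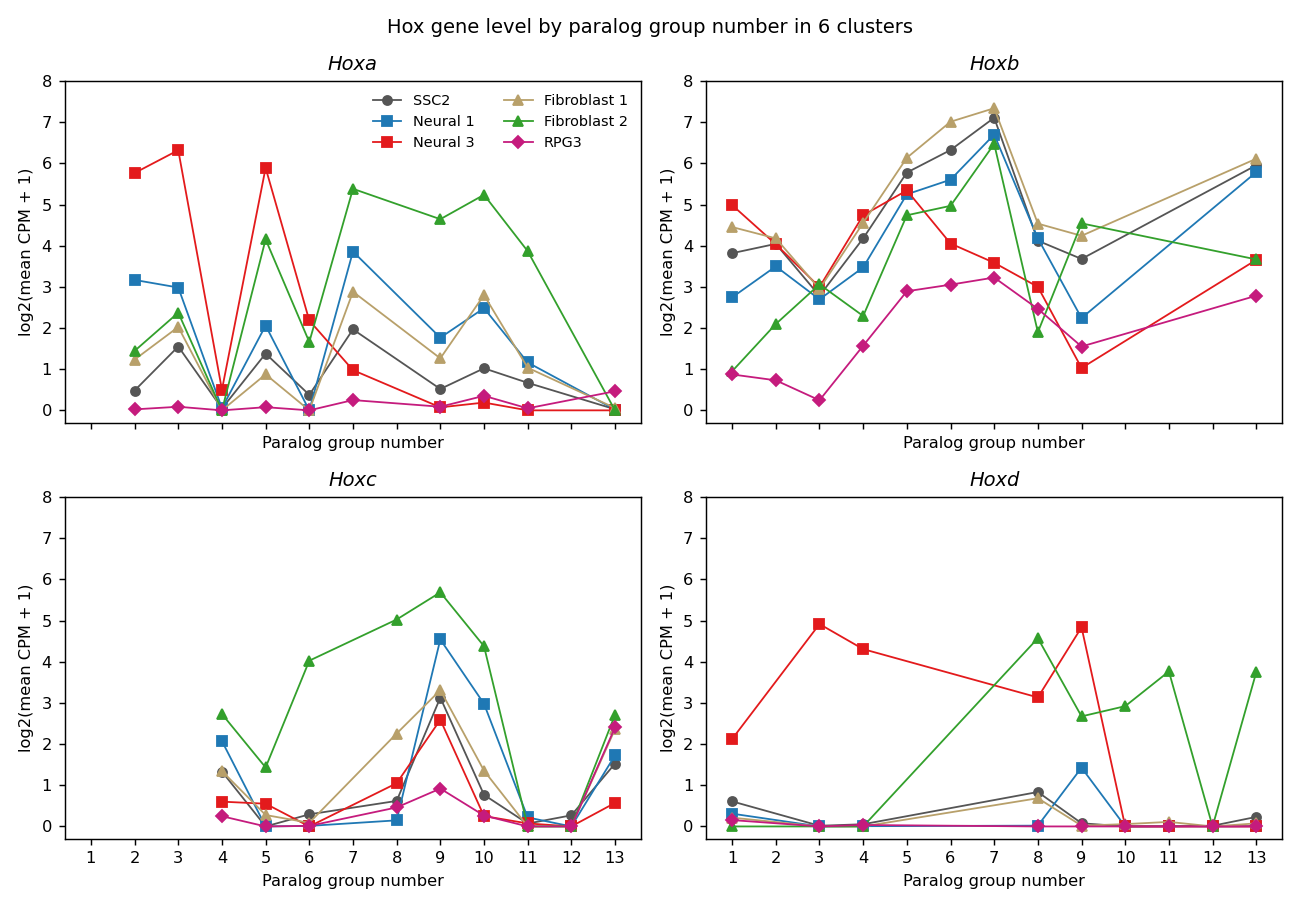
Level of the members reported here by Hox cluster and paralog number, as log2(mean CPM + 1), in SSC2, Neural 1, Neural 3, Fibroblast 1, Fibroblast 2 and RPG3. Neural 3 is high at the low paralog numbers of Hoxa, Hoxb and Hoxd, and Fibroblast 2 at *Hoxa7*, *Hoxa9*, *Hoxa10*, *Hoxc8* and *Hoxc9*. SSC2, Neural 1 and Fibroblast 1 lie above RPG3 in Hoxb, with mean *Hoxb* sums of 411, 294 and 533 CPM against 38.1.

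Early-pluripotent cells differed from SSC1-4 in 1 member, which was higher, with a background of 0.914%. *Hoxb9* had 35.9, 67.3 and 23.4 CPM in the libraries SSCR_D12 replicate 2, SSCR_D14 replicate 3 and SSCR_D18 replicate 4, against at most 23.8 in SSC1-4, so that the first pair of libraries lay above all of SSC1-4. The log2 difference was 2.09 ± 0.52 (adjusted p = 0.0207), and it was not called without SSCR_D12 replicate 2, without SSCR_D14 replicate 3 (4 and 7 of 36 members with an unadjusted p below 0.05) or with the library as a block, where 1 of 28 members had an unadjusted p below 0.05. All 3 libraries were from batch B2, and *Hoxb9* was not called within B2 or with batch as a covariate, where *Hoxa13* was called in its place. The same 3 libraries had *Hoxb6* at 97.7, 163 and 175 CPM and *Hoxb7* at 122, 156 and 144. *Hoxb6* did not pass the test (0.85 ± 0.30, 0.156). The median over the members was 0.04, against -0.14 over all genes.

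In meiotic cells no member was called by edgeR, with a background of 1.86%, and none by DESeq2. Unadjusted, 7 of 36 members had p below 0.05 in edgeR and 3 in DESeq2. *Hoxb7* had 121 ± 7.45 CPM and *Hoxb6* 56.6 ± 6.37. The median over the members was -0.35, against -0.03 over all genes.

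Partners and regulators of Hox genes were called in both directions in the classes with low Hoxb, for several lists in shares close to those of all genes. In RPG2, RPG3 and RPG4, 17.5%, 25.2% and 12.6% of all genes were called higher than in SSC1-4, beside the shares called lower and the medians given above. Of 9 TALE cofactors, proteins of the Pbx, Meis and Pknox families, 3 were higher and 1 lower in RPG3 than in SSC1-4 (median 0.22), where the share of higher ones is close to the background. *Pknox2* rose from 0.0585 to 5.12 CPM (log2 difference 6.05 ± 0.82, adjusted p = 8.9e-10) and *Meis3* from 0.233 to 4.69 (4.09 ± 0.76, 2.8e-06), while *Pbx4* fell from 36.6 to 14.2 (-1.37 ± 0.28, 2.8e-05). In RPG4 4 were higher and 1 lower, with *Meis3* at 22.8 CPM. In neural cells 5 of 9 were higher and 1 lower, beside backgrounds of 5.77% and 4.97%, and *Meis2* (3.11 ± 0.56, 4.4e-05) was at 21 ± 37.5 CPM. The summed cofactors were at 1060 CPM in Neural 3 but at 109 in Neural 1 and 148 in Neural 2, against 108 to 113 in SSC1 to SSC4.

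Of 18 genes of the trithorax and Polycomb complexes, 8 were higher and 7 lower in RPG3 (median 0.13). *Phc1*, a subunit of Polycomb repressive complex 1, rose from 44.8 ± 15.3 to 309 ± 43.1 CPM (2.79 ± 0.15, adjusted p = 1.4e-29). *Jarid2*, a subunit of Polycomb repressive complex 2, rose from 99.9 ± 21.5 to 269 ± 75.9 CPM (1.42 ± 0.11, 9e-20). *Cbx8*, the reader subunit in some of the first kind of complex, fell from 54.2 ± 18.1 to 3.92 ± 2.92 CPM (-3.89 ± 0.34, 1.7e-17). The counts were also 8 and 7 in RPG2, and 4 and 6 in RPG4. In RPG1 1 was higher (*Phc1*) and 1 lower (*Cbx2*).

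Of 8 upstream regulators, 2 were higher and 3 lower in RPG3 (median -0.97), again close to the background. *Cdx1*, an activator of Hox clusters, was at 4.22 ± 3.73 CPM against 0.919 ± 2.82 (2.64, adjusted p = 0.0019), while *T* (-2.56, 0.0053), the gene of brachyury, was lower. *Wnt3a* was called lower too, with no UMI in RPG3 and 195 UMIs (0.212 CPM) in SSC1-4. In RPG4 *Cyp26a1*, which breaks down retinoic acid, was at 51.8 CPM (5.72 ± 0.96, 1.2e-06) and none was lower.

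Of 8 non-coding and flanking homeobox genes of the clusters, 5 were lower and 1 higher in RPG3 (median -3.03), while 3 were lower in RPG2 and 2 in RPG4. *Hotairm1*, a non-coding RNA of the Hoxa cluster, fell from 37.6 ± 16.8 to 3.84 ± 3.89 CPM (-3.29 ± 0.40, adjusted p = 1.8e-11). *Hoxb3os* (-3.25 ± 0.47, 8.1e-09) and *Hoxb5os* (-4.29 ± 0.89, 2.5e-05) were lower too. The gene that rose was *Evx1*, a homeobox gene beside Hoxa, at 0.524 ± 1.33 CPM (0 to 3.8) against 0.0653 (4.14 ± 0.90, adjusted p = 7.36e-05). Nearly all of it came from SSCR_D20 replicate 1, and *Evx1* is also among the genes next to the clusters, counted next. The non-coding RNAs *Hotair* and *Hottip* did not pass the test. Of 14 genes next to the clusters, 7 were higher and 4 lower in RPG3 (median 0.40), among them *Snx10* (1.45 ± 0.14, 3e-16) and *Hibadh* (1.22 ± 0.14, 9.1e-12) beside Hoxa. *Calcoco2*, at 22.9 ± 21.1 against 2.37 ± 1.87 CPM, was higher by 3.15 ± 0.37 (3.8e-12).

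The next question was whether SSC1-4 cells changed with days in culture. In B1, the larger batch, 1 of 27 members had a slope, where 4.97% of 17576 genes were called and 3.39% were called lower. *Hoxb9* fell by 0.105 ± 0.031 per day on the log2 scale (adjusted p = 0.0375). *Hoxa3* had a slope of 0.136 ± 0.045 (0.0738). The call on *Hoxb9* was lost without days 0, 8 and 10, where 5 of 22 members had an unadjusted p below 0.05. A difference between batches in how RPG1 or RPG3 stood to SSC1-4 was not found by edgeR, with 0 of 31 members at an adjusted p below 0.05 for either class. Unadjusted, 3 members for RPG1 and 1 for RPG3 passed 0.05, and the lowest adjusted p were 0.503 and 0.343. *Hoxb7* in RPG3 was at 7.53 CPM in B1 (5 libraries) and 9.44 in B2 (3 libraries).

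The last comparison asked how cells treated with 5C and with DMSO differed within a class, in the scTrio-seq2 samples, whose classes were predicted by the authors. The 5C samples were taken on days 12, 14 and 16 and the DMSO samples on days 20 and 24, with 7 cells of day 0 in DMSO replicate 5. Treatment and day cannot be told apart. Libraries were shallower here, with a median of 68252 UMIs per SSC1-4 cell in 5C, and 12 members could be tested in SSC1-4 (8 against 3 samples) and 7 in RPG3 (6 against 2).

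SSC1-4 cells had a *Hoxb* sum of 330 ± 76.5 CPM in 5C (247 to 487) and of 207, 262 and 214 CPM in DMSO. Of the 12 members 4 were higher in 5C and none lower, with 10.7% of 12293 genes called higher. Of the 4, *Hoxb2* and *Hoxc13* passed the filter on low counts through 5C samples alone and so had to be higher there. *Hoxb9* reached the filter level in 7 samples of 5C and 1 of DMSO, so that it passed through 5C too and its call is no support. Of the 4 only *Hoxb6* reached it in all 8 and 3 samples, and the count is a description. *Hoxb6* had 72.7, 58.7, 98.3, 65.3, 131, 102, 69.7 and 33 CPM in 5C replicates 1 to 8, and 18.6, 35.7 and 35.2 in DMSO replicates 3, 4 and 5. All but 1 of the 5C values were above DMSO, and the log2 difference was 1.39 ± 0.32 (adjusted p = 0.00284).

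*Hoxb2* had 9.04, 9.32, 5.63, 6.99, 3.82, 12.5, 2.07 and 7.87 CPM in 5C and 0.78, 0 and 2.01 in DMSO, without overlap. *Hoxb9* had 24.9, 24.4, 20.8, 19.4, 30.6, 1.97, 13.9 and 9.99 CPM in 5C and 7.49, 1.70 and 2.35 in DMSO. Replicate 6 lay within DMSO and the other 5C samples above it, with 2.16 ± 0.64 (0.0165). *Hoxc13* had a median of 6.29 CPM (0.655 to 19.1) in 5C and of 1.25 (0 to 1.70) in DMSO.

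*Hoxb7*, the member with the highest level, did not pass the test. It had 88.1 ± 18.9 CPM in 5C (57.0, 89.9 and 119) and 92.6, 112 and 99.7 in DMSO, a log2 difference of -0.21 ± 0.20 (adjusted p = 0.487). The median over the 12 members was 0.87, against 0.02 over all genes. Leaving out DMSO replicate 4 left 1 call, and leaving out replicate 3 or 5 left 2. The pluripotency markers differed between the arms in these cells in both directions, by their means. *L1td1* was at 19.6 CPM in 5C and 0 in DMSO, *Nanog* at 8.29 and 0.649 and *Sox2* at 106 and 23.3, while *Dppa3* was at 43.1 and 302, *Utf1* at 27.1 and 57.5 and *Pou5f1* at 2.97 and 8.18. Of the germ cell markers, *Dazl* was at 1360 ± 160 CPM in 5C and 1250 ± 75.1 in DMSO and *Zbtb16* at 92.9 and 92.3, while *Dmrt1* was at 291 and 374 and *Ddx4* at 284 (256 to 321) and 468 (378 to 514), without overlap. Their part in the Hox difference was not tested.

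RPG3 cells had a *Hoxb* sum of 32.5 ± 10.2 CPM in 5C (20.0 to 50.4) and of 4.38 and 1.14 in DMSO. Of 7 members 2 were called higher in 5C, with 6.36% of 11429 genes called higher. All 7 passed the filter on low counts through 5C samples alone, so that they had to be higher there, and neither the count nor the calls support a difference. *Hoxb7* had 11.8, 7.87, 6.85, 6.59, 5.82 and 10.5 CPM in 5C replicates 1, 3, 5, 6, 7 and 8, and 1.15 and 0.685 in DMSO replicates 1 and 2, without overlap. The log2 difference was 3.12 ± 0.93. *Hoxb8* had 4.24, 1.57, 2.55, 5.65, 2.08 and 3.95 CPM in 5C and none in DMSO, 50 UMIs against 0 and at least 12.9-fold. *Hoxb9* had 39 UMIs against 0, at least 10.1-fold, and *Hoxb6* a log2 difference of 3.26 ± 1.17, and neither was called.

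Both calls were lost when DMSO replicate 1 or DMSO replicate 2 was left out (4 of 7 and 2 of 8 members at an unadjusted p below 0.05), in fits with 1 DMSO sample that is assumed to vary like the 5C samples. Without 5C replicate 1, *Hoxb7* was not called and *Hoxb8* was not among the 3 members that could be tested, all of which had an unadjusted p below 0.05. *Dazl* moved the same way in these cells, at 156 ± 62.9 CPM in 5C (81.3 to 259) and 45.0 and 49.8 in DMSO, and the means of *Ddx4* (39.4 and 16.4), *Dmrt1* (28.2 and 12.2) and *Zbtb16* (4.94 and 1.73) were also higher in 5C. Of the pluripotency markers, *Nanog* (222 against 358 and 365), *Utf1* (mean 759 against 1670) and *Pou5f1* (27.2 against 45.5) had lower means in 5C. *Sox2* (546 against 284) and *Dppa3* (425 against 292) had higher ones, and *L1td1* was at 502 and 508. Their part in the Hox difference was not tested.

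**Figure D5:**
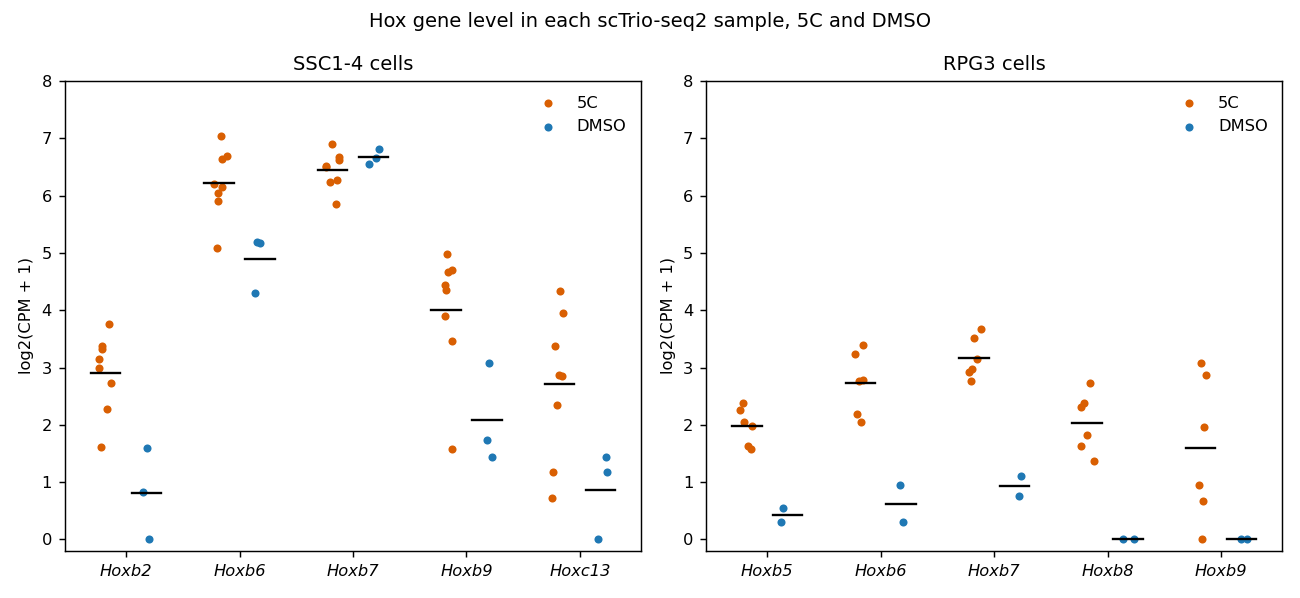
Level of members in each scTrio-seq2 sample (point) treated with 5C or DMSO, as log2(CPM + 1) with the mean of the log values as a bar, for *Hoxb2*, *Hoxb6*, *Hoxb7*, *Hoxb9* and *Hoxc13* in SSC1-4 cells (left) and *Hoxb5* to *Hoxb9* in RPG3 cells (right). In SSC1-4 cells the arms are apart for *Hoxb2* and mix for *Hoxb7*, and in RPG3 cells the 2 DMSO samples lie below all 5C samples for *Hoxb7* and *Hoxb8*.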

How the data were processed

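Raw UMI counts per gene and cell were used as deposited. Per the study's methods, the authors extracted barcodes and UMIs with UMItools, aligned reads with STAR 2.7.2b to mm10 and counted genes with featureCounts 2.0.0, and the annotation and strand setting are not given in the sources used here. The authors kept cells by genes detected and by the percent of mitochondrial UMIs, and deposited clusters and batches in a cell annotation. For scTrio-seq2, classes came from the study's list of cells, and 48 of 1089 cells had none of them.

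Samples were grouped by their labels. The replicate was the library or sample. UMIs of each class in a library were added, given 5 or more cells, and tested with edgeR 4.0.16 in R 4.3.3 (TMM, filterByExpr, quasi-likelihood test) in 1 fit of 9 classes without covariates, with calls at an adjusted p below 0.05 (Benjamini-Hochberg). Log2 values are given ± SE. Simulated data were used to try a fit of SSC1-4 against RPG3 and a slope over day. They do not cover the fit of 9 classes, classes of few libraries or members with few UMIs. CPM, detection after thinning to 50000 UMIs, and exact intervals at the 95% level were computed in Python 3.11.15 with pandas 2.3.3, numpy 2.4.6 and scipy 1.17.1, and plots with matplotlib 3.10.9. DESeq2 1.42.0, other filters, batches, blocks and left-out libraries were tried as alternatives. Coordinates are from an annotation of GRCm38, counted from 1.

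Members with a mean of at least 10 CPM in 1 or more classes are given by library, or by lowest, median and highest library in larger groups, and the others by ranges or counts. Genes of the lists (cofactors, upstream regulators, trithorax and Polycomb, genes in and beside the clusters, and markers) are named where called, at most 3 per list and comparison by adjusted p, plus defining markers. Members and lists were chosen with earlier results of these data known. Methylomes were not analysed here, and single values of a few genes are not reported here.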

Additional observations from a re-analysis of the deposited data

Results flagged for a closer look

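In groups of 4 to 10 libraries, a library was set apart where its gap to the next value was large against the range of its group. Of 65 groups examined, 12 held such a value. Groups share libraries and many levels are close to the floor, so no rate by chance can be set beside this number. Of the 8 RPG3 libraries, SSCR_D23 replicate 2 stood above the others for *Hoxb13* (18.9 CPM), *Hoxb4* (6.61), *Hoxb1* (3.37), *Hoxb2* (2.56) and *Hoxa7* (1.35). The same library had the highest *Hoxb* sum of its class, and its *Dazl*, at 167 CPM, was close to the highest, 168. SSCR_D12 replicate 2, of 7 RPG3 cells, stood above for *Hoxc9* (4.21 CPM). Among the 6 meiotic libraries, SSCR_D16 replicate 4 was low for *Hoxb6* (44.3 CPM).

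Among the 5C samples, replicate 3 stood above the others in RPG3 cells for *Hoxb4* (9.45 CPM) and *Hoxb13* (7.87). In SSC1-4 cells, replicate 6 stood above for *Hoxb4* (44.6 CPM), replicate 5 for *Hoxc9* (29.3) and replicate 4 for *Hoxa7* (0.219, where the other samples were at 0). The cause of these values was not tested.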

How the results depend on the processing

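All 10 *Hoxb* members were lower than in SSC1-4 under 9 of 14 alternatives in RPG2, 18 of 20 in RPG3 and 9 of 13 in RPG4, and at least 8 under each, with *Hoxb3*, *Hoxb8* or *Hoxb9* not called in the others, and of 1280 values of named members under alternatives none reversed and 66 lost their call. Leaving out 1 library at a time gave 1 to 3 members called in RPG1 against SSC1-4, 11 to 12 in RPG2, 22 to 25 in RPG3, 9 in RPG4, 3 to 7 in fibroblast, 0 to 1 in early-pluripotent, 0 in meiotic and 6 to 11 in neural cells. Against RPG1 it gave 10 to 13 for RPG2, 13 to 16 for RPG3, and 9 to 13 for RPG4. In 5C against DMSO it gave 1 to 4 in SSC1-4 and 0 to 3 in RPG3.

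Calls at adjusted p below 0.01 and a natural-log change of 1 or more in size numbered 1 in RPG1, 3 in fibroblast, 0 in early-pluripotent and 6 in neural cells. The DESeq2 Wald test called 1 in fibroblast and 3 in early-pluripotent cells, and 5 for day. With at least 10 cells per sum there were 3 in fibroblast and 2 in early-pluripotent cells. With fits of just the pair of classes there were 2 in early-pluripotent and 5 in neural cells, and 10 in RPG3 against RPG1. With batch as a covariate, or in B1 alone, RPG1 had 1, and in B2 alone there were 0 in RPG1, 13 in RPG3, 0 in early-pluripotent and 0 in neural cells, and 8 in RPG3 against RPG1. Unadjusted, 6, 3 and 3 of 27 members passed 0.05 where B2 gave 0. With sums per batch and day there were 1 in RPG1 (higher), 16 in RPG3, 0 in early-pluripotent (9 of 32 unadjusted) and 3 in neural cells. SSC1-4 sums from libraries without RPG2, RPG3 or RPG4 cells gave 2 in early-pluripotent cells.

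With the library as a replicate block there were 0 in RPG1, 11 in RPG3, and 0 in fibroblast, early-pluripotent and neural cells. The same libraries without the replicate block, chosen after seeing the data, gave 1 in RPG1, 2 in fibroblast, 0 in early-pluripotent (5 of 28 unadjusted) and 2 in neural cells. Without Fibroblast 2 cells there was 1 in fibroblast cells and without Neural 3 cells there were 5 in neural cells, both chosen after seeing the data, as was the test between batches. Replicate numbers did not pair 5C and DMSO samples (correlations of 0.05, -0.02 and -0.02), and a block of the number gave 3 calls in SSC1-4 in place of 4.

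Without the filter on low counts there were 2 for day, 9 for 5C against DMSO in SSC1-4 and 1 in RPG3, and without days 0, 8 and 10 there were 0 for day. Thinning to 100000 UMIs gave 5.03 *Hoxb* members per cell in SSC1-4, 5.27 in RPG1, 1.86 in RPG3 and 1.22 in RPG4, and no thinning 5.63, 5.75, 3.57 and 2.88, with 3.7 in RPG2. DESeq2's size factors moved the median of all genes by 0.15 in RPG4 against SSC1-4. RPG2 and RPG4 rest on 3 and 2 libraries, so that their spread is estimated mainly from the other classes, and *Hoxa*, *Hoxc* and *Hoxd* members with few UMIs could not show modest changes at this depth. Causes were not tested.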
